A study of Mus musculus with 26 samples.

Results

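The 10 genes described here encode proteins of the cardiac sarcomere, the contractile unit of heart muscle. They were the myosin heavy chains *Myh6* and *Myh7*, the myosin light chains *Myl2*, *Myl7*, *Myl3* and *Myl4*, cardiac alpha actin *Actc1*, cardiac troponin T *Tnnt2*, and the troponin I genes *Tnni1* and *Tnni3*. The members were picked by name, as the rows of a gene expression matrix that carry these symbols, 10 of 52454 gene symbols. The rule uses no measured value, but the genes were proposed with earlier results of these data known. Each symbol matched 1 row.

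In the sarcomere, myosin heads of the thick filament pull on the actin thin filament, and the troponin complex on the thin filament makes this pull depend on calcium. A myosin molecule holds heavy chains, which carry the motor, and 2 kinds of light chain, regulatory and essential, which bind the neck of the head. Mouse atria and ventricles use different members of each pair. Alpha myosin heavy chain (*Myh6*), the regulatory light chain *Myl7* and the essential light chain *Myl4* are enriched in atrial muscle of the embryo, whereas beta myosin heavy chain (*Myh7*), *Myl2* and *Myl3* are enriched in ventricular muscle. *Myh6* replaces *Myh7* in the ventricle around birth, and *Tnni3* replaces *Tnni1*, the slow skeletal form that the fetal heart uses. *Actc1*, *Tnnt2*, *Tnni1*, *Myl4* and *Myh7* are also used by developing skeletal muscle, and *Myl2* and *Myl3* by slow skeletal fibres.

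The study asked which genomic regions the de novo DNA methyltransferases DNMT3A and DNMT3B methylate in the mouse embryo, and its RNA-seq allowed expression to be set beside methylation. Of the 10 RNA-seq libraries, 4 came from heart and liver of male C57BL6 embryos at embryonic stage E14.5 that were wild type (WT) or carried the *Dnmt3a* knockout (KO), allele B6;129S4-*Dnmt3a* tm1Enl in the germline. A further 4 came from male C57BL6 mouse embryonic fibroblasts (MEFs, taken at the same stage and used at passage 1), WT or *Dnmt3a* KO, with the vehicle DMSO or with GSK126, an inhibitor of the histone methyltransferase EZH2, at 10 µM for 2 days. The last 2 were 2i-MEFs, fibroblasts of a female F1 (129X1/SvJ and MSM/Ms) background, grown by antibiotic selection from E14.5 chimeric embryos made with embryonic stem cells in which *Dnmt3a* or *Dnmt3b* had been deleted with CRISPR/Cas9, so that each is the progeny of an edited stem cell line rather than of a mutant mouse. The embryonic stem cells of both 2i-MEF groups had been kept in MEK inhibitor, Gsk3 inhibitor and LIF before they were injected, and none of the deletions was limited to muscle. The heart and liver of a genotype carry the same number in their titles, and the WT and KO numbers differ. A WT 2i-MEF RNA library and the methylation samples were not analysed here.

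Each condition had 1 library, so no value below has a replicate error. Fits that pool genotype over tissues or treatments were not run, no p-value is given, and the effect of genotype or treatment cannot be told apart from differences between embryos or cultures. Values are FPKM, fragments scaled to transcript length and to the mapped total of the library. Library depth, estimated from the size of the smallest steps in the FPKM of low genes, ran from 9153698 to 26162522 mapped reads. A single read on a 2000-base transcript then amounts to 0.0212 to 0.0605 FPKM. *Dnmt3a* itself did not follow the labels in every tissue: it stood at 55.0 FPKM in the WT heart against 125 in the KO-labelled heart, and at 53.5 against 12.7 in the livers. In MEFs it was at 26.1 (DMSO) and 19.3 (GSK126) in WT against 85.7 and 84.5 in the KO-labelled libraries, and in 2i-MEFs at 4.21 in *Dnmt3a* KO against 23.9 in *Dnmt3b* KO. The matrix gives 1 value for all transcripts of a gene and cannot show whether the deleted exons are missing, so the libraries are called the heart, liver or MEFs labelled *Dnmt3a* KO throughout.

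The cardiac transcription factor gene *Nkx2-5* stood at 179 FPKM in the heart of WT and 182 in that of the labelled KO and at 0 and 0.117 in the livers, and *Gata4*, which liver also expresses, at 120 and 114 in the hearts and 14.8 and 14.8 in the livers. The 9 fibroblast markers examined (*Col1a1*, *Col3a1* and others) were all at 1 FPKM or more in each MEF and 2i-MEF library. All 9 also reached 1 FPKM in both hearts and the WT liver, so this limit does not tell the libraries apart. Their summed level was 7402 to 22695 FPKM in the fibroblast libraries, against 436 to 1834 in the hearts and livers. Hepatocyte genes were high in both livers, with *Alb* at 7396 FPKM in WT and 4323 in the labelled KO. Globin genes took 12.5% and 16.1% of the summed FPKM of those livers.

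The genes lie on 7 chromosomes of mm10. *Myh6* (ENSMUSG00000040752.15, chr14:54941981-54966927) and *Myh7* (ENSMUSG00000053093.15, chr14:54970688-54994634) lie head to tail on the minus strand, 3760 bases apart. *Tnni1* (ENSMUSG00000026418.16, chr1:135779434-135810989) and *Tnnt2* (ENSMUSG00000026414.13, chr1:135836354-135852260) are also neighbours, both on the plus strand and 25364 bases apart. The light chains are scattered: *Myl2* (ENSMUSG00000013936.12) at chr5:122100951-122113472, *Myl7* (ENSMUSG00000020469.8) at chr11:5896637-5898782, *Myl4* (ENSMUSG00000061086.12) at chr11:104550663-104595753 and *Myl3* (ENSMUSG00000059741.13) at chr9:110741861-110769798. *Actc1* (ENSMUSG00000068614.7) lies at chr2:114047282-114053548 and *Tnni3* (ENSMUSG00000035458.15) at chr7:4518305-4524229. Of the possible 75-base reads from the main *Myh6* transcript, 15.5% also occur in a transcript of *Myh7*, and 15.3% of those of *Myh7* occur in *Myh6*. In all, 19.7% of the *Myh7* reads are shared with another annotated gene, among them *Mhrt*, a transcript antisense to *Myh7*, so the levels of these 2 genes are less certain than the rest. None of the other 8 genes shares a 75-base read with another annotated gene.

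The promoters of 4 members are shown because they cover the cardiac actin, an atrial light chain and both heavy chains, genes at 931 FPKM or more in both hearts. Each is a window of 300 bases around an annotated start, taken from RefSeq (GRCm38.p6) and written 5′ to 3′. Capitals mark a TATA box (TATAAA), a CArG box, the binding sequence of serum response factor, and a GATA motif (GATA with A or T before it and A or G after it), each searched on both strands.
Actc1 (chr2:114052826-114053125, minus strand): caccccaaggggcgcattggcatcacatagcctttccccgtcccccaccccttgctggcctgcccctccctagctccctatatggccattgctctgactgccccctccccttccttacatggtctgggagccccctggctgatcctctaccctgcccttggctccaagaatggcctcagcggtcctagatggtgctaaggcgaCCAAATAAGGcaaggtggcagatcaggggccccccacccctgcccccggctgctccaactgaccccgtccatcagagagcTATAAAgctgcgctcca
Myl7 (chr11:5898733-5899032, minus strand): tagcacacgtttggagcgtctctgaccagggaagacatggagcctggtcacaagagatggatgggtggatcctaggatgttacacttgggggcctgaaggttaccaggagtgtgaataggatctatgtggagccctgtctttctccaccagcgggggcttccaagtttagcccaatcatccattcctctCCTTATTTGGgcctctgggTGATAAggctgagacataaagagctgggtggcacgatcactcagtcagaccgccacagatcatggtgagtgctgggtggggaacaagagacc
Myh6 (chr14:54966558-54966857, minus strand): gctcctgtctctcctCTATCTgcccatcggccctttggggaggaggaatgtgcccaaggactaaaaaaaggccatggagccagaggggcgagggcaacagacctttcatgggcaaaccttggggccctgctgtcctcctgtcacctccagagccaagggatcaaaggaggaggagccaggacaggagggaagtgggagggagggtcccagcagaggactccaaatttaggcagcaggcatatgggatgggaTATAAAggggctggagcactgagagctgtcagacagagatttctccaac
Myh7 (chr14:54994577-54994876, minus strand): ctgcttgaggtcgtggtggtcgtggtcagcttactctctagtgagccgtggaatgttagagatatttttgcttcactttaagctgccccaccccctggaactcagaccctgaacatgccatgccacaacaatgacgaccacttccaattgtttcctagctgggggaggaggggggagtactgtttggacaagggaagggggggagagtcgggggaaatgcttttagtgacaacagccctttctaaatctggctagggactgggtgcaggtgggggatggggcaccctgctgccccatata

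With the annotated start counted as 0, *Actc1* held a CArG box at positions -47 to -38 and TATAAA at 33 to 38. *Myl7* held a CArG box at -61 to -52 and a GATA motif at -42 to -37. *Myh6* held TATAAA at 1 to 6 and a GATA motif on the opposite strand at -235 to -230. The *Myh7* window held none of these 3 motifs. Over the 14 windows of the 10 members, a CArG box was found for 3 genes (*Actc1*, *Myl7* and *Myl3*), against 1.63% of all 32851 promoter windows of this length. TATAAA was found for 3 of the 10 genes and in 13.6% of all windows, and a GATA motif for 5 and in 29.8%. The MCAT element (CATTCC), bound by TEAD factors, was found for 5 genes and in 14.7% of windows, and the MEF2 box for none of the 10 and in 3.19%. The *Myl2* windows, which hold 1 of the TATAAA and 1 of the GATA matches, lie upstream of the locus that the matrix gives. The windows of *Actc1*, *Myh6*, *Myl3*, *Tnni1* and *Tnni3* lie inside their own loci, past the 5′ end that the matrix gives. Positions in these windows are therefore counted from another annotated start. A match is a run of letters and was not tested as a binding site.

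All 10 genes were among the most abundant transcripts of the embryonic heart and were low elsewhere. Together they made up 8.11% of the summed FPKM of the WT heart and 7.72% of that of the heart labelled *Dnmt3a* KO, against 0.0121% and 0.00301% in the matching livers and 0.00108% to 0.00269% in the 6 fibroblast libraries. In each heart, 9 of the 10 stood among the 100 highest of all gene symbols. *Myl2* ranked 1 in the WT heart and 2 in the labelled KO heart, and *Myh6*, the lowest member, ranked 105 and 153.

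**Figure D1:**
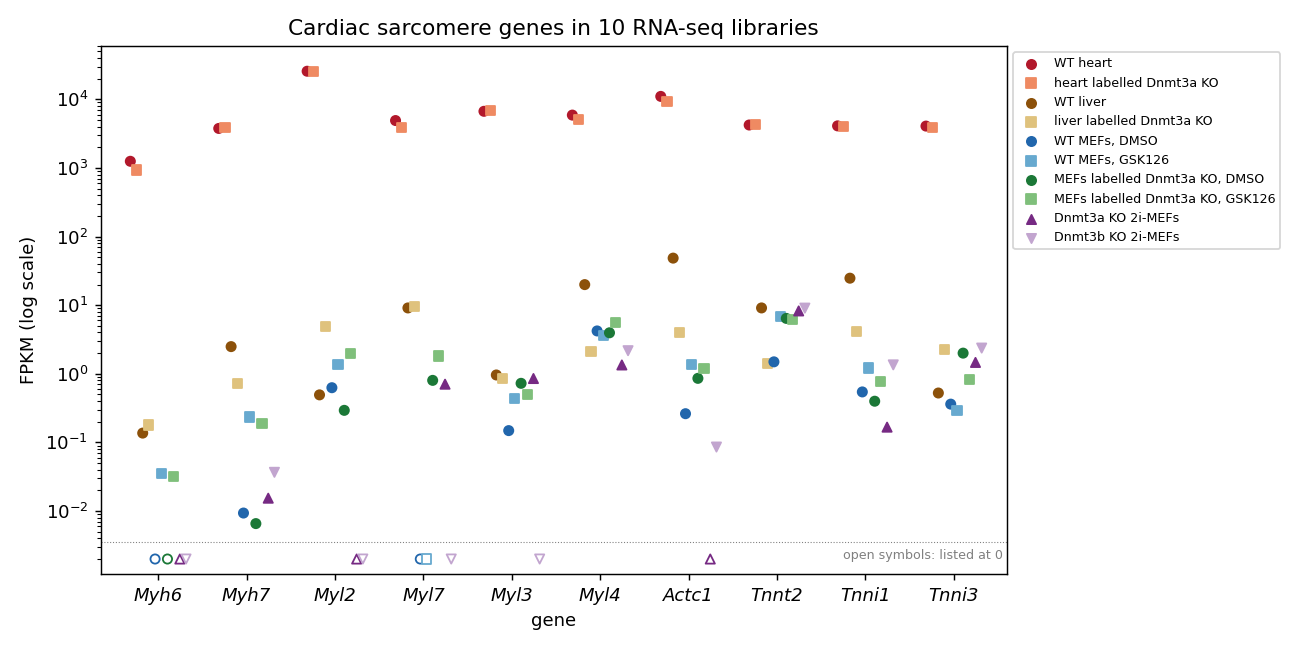
FPKM (log axis) of the 10 sarcomere genes in each of the 10 libraries, 1 point per library; open symbols below the dotted line are values listed at 0. The 2 hearts lie between 931 and 25671 FPKM for every gene, and no other library exceeds 48.5 FPKM.

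Heart exceeded liver at least 2-fold in FPKM + 1 for 10 of the 10 genes in WT and for 10 of the 10 in the labelled KO, where 18.8% and 21.7% of the 14150 tested genes (those averaging 1 FPKM or more over the 10 libraries) did so. None of the 10 was at least 2-fold lower in heart, against 19.2% and 18.1% of tested genes. The genes were picked as cardiac genes and their means are set mostly by the 2 hearts, so these counts describe the choice and test nothing. The log2 ratio of heart over liver ran from 7.32 (*Tnni1*) to 14.07 (*Myl2*) in WT, with a median of 9.50 against -0.06 over all tested genes. In the labelled KO it ran from 8.52 (*Myl7*) to 12.08 (*Myl2*), with a median of 10.73 against 0 over all tested genes. Even the lower of the 2 heart values exceeded the highest of the other 8 libraries by 161-fold (*Tnni1*) to 6958-fold (*Myl3*), with a median of 987-fold.

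Across the 10 libraries the members followed each other closely. Over the 45 pairs, Pearson's r of log2(FPKM + 1) ran from 0.936 (*Actc1* with *Tnni3*) to 0.998 (*Myh6* with *Myl3*), with a median of 0.979. The genes with a profile most like the mean of the members were *Csrp3* (muscle LIM protein, r = 0.9997), *Myoz2* (a Z-disc protein, 0.9990), *Casz1* (a zinc finger transcription factor, 0.9989), *Ckm* (muscle creatine kinase, 0.9986) and *Trim55* (a ubiquitin ligase of the sarcomere, 0.9984). These r values are descriptions that rest on the 2 hearts, the only libraries where the genes are high, and 177 other genes lay as close to the mean profile as the farthest member (r = 0.979).

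Among the heavy chains, the ventricular form prevailed in both hearts. *Myh7* stood at 3765 FPKM in WT and 3884 in the heart labelled *Dnmt3a* KO, a log2 ratio of 0.04 in FPKM + 1. *Myh6* stood at 1250 and 931, 25.5% lower in the labelled KO (ratio 0.745, 95% counting interval 0.738 to 0.751), a log2 ratio of -0.42. *Myh7* exceeded *Myh6* by 3.01-fold in the WT heart and by 4.17-fold in the labelled KO heart, and *Myh6* made up 24.9% and 19.3% of the heavy chain FPKM. Counting intervals here and below come from the estimated reads and cover counting error only, since the reads carry no molecular identifiers and differences between embryos are not in them.

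The regulatory light chains had the widest gap between chamber forms. *Myl2*, which binds the neck of ventricular myosin, stood at 25671 FPKM in the WT heart and 25505 in the labelled KO heart, a log2 ratio of -0.01. *Myl7*, its atrial counterpart, stood at 4907 and 3930, 19.9% lower in the labelled KO (ratio 0.801, counting interval 0.788 to 0.814) and a log2 ratio of -0.32. *Myl2* was thus 5.23-fold above *Myl7* in WT and 6.49-fold above it in the labelled KO.

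The essential light chains were closer to each other. *Myl3*, the ventricular form, stood at 6691 FPKM in the WT heart and 6826 in the labelled KO heart, a log2 ratio of 0.03. *Myl4*, the atrial form, stood at 5892 and 5055, 14.2% lower in the labelled KO (ratio 0.858, counting interval 0.849 to 0.867) and a log2 ratio of -0.22. *Myl4* made up 46.8% of the pair in WT and 42.5% in the labelled KO.

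On the thin filament, *Actc1* was lower in the labelled KO heart, with 11034 FPKM in WT and 9220 in the labelled KO (16.4% lower, ratio 0.836, counting interval 0.831 to 0.841, log2 ratio -0.26). Troponin differed less. *Tnnt2*, which ties the troponin complex to tropomyosin, stood at 4225 and 4334 (log2 ratio 0.04). Of the inhibitory subunits, *Tnni1* stood at 4103 and 3987 (-0.04) and *Tnni3* at 4075 and 3882 (-0.07). The fetal and adult troponin I genes were therefore level with each other, with *Tnni1* 1.01-fold above *Tnni3* in WT and 1.03-fold in the labelled KO.

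In order of level, *Myl2*, *Actc1*, *Myl3* and *Myl4* held the first 4 places in both hearts and *Myh6* the last. The 5 genes between them, *Myl7*, *Tnnt2*, *Tnni1*, *Tnni3* and *Myh7*, lay within 3765 to 4907 FPKM in WT and 3882 to 4334 in the labelled KO, and their order differed between the hearts. Summed by role, the regulatory light chains stood at 6.10 times the heavy chains in WT and 6.11 times in the labelled KO, the essential light chains at 2.51 and 2.47 times and troponin I at 1.63 and 1.63 times. Cardiac actin stood at 2.2 and 1.9 times the heavy chains.

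None of the 10 genes differed 2-fold between the hearts, where 1.38% of tested genes were at least 2-fold higher and 1.20% at least 2-fold lower in the labelled KO. The median log2 ratio of the 10 was -0.06, against 0 over all tested genes, with 3 above 0 and 7 below. The 4 lowest were *Myh6*, *Myl7*, *Actc1* and *Myl4*, and 7.80%, 11.7%, 15.4% and 17.9% of all tested genes had a log2 ratio as low or lower. Genes at this level varied less: of the 1190 genes that averaged 100 FPKM or more over the 2 hearts, a limit chosen after the values were seen, 1.60% lay at or below *Myh6*, 2.52% at or below *Myl7*, 4.37% at or below *Actc1* and 5.63% at or below *Myl4*. Summed, the 3 atrial genes stood at 12050 FPKM in WT and 9916 in the labelled KO, 17.7% lower, and the 3 ventricular genes at 36128 and 36215.

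**Figure D2:**
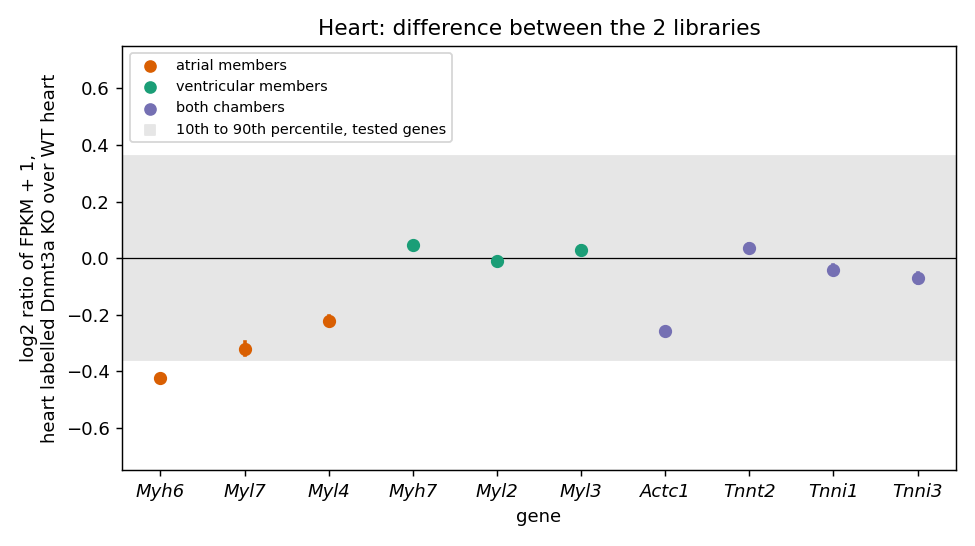
Log2 ratio of FPKM + 1, heart labelled *Dnmt3a* KO over WT heart, for each gene (points) with the 95% counting interval (short bars, mostly hidden by the points); the grey band spans the 10th to 90th percentile of the 14150 tested genes, -0.36 to 0.36. *Myh6* lies at -0.42, *Myl7* at -0.32, *Actc1* at -0.26 and *Myl4* at -0.22, and the other 6 genes lie between -0.07 and 0.04.

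**Figure D3:**
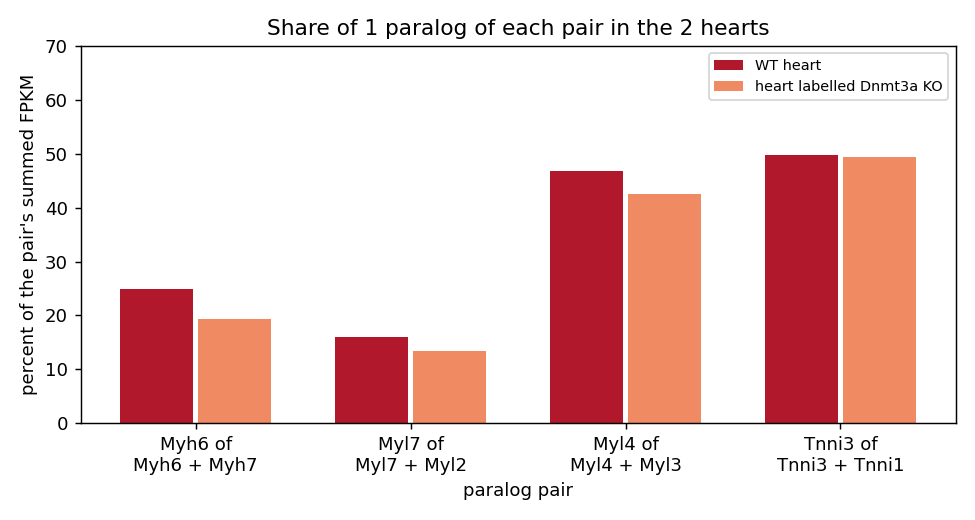
Share of the first named gene in the summed FPKM of each paralog pair (bars, percent) in the 2 hearts, 1 library each. *Myh6* goes from 24.9% to 19.3%, *Myl7* from 16% to 13.4% and *Myl4* from 46.8% to 42.5%, and *Tnni3* from 49.8% to 49.3%.

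Within-library ratios do not depend on the scaling of the libraries. In log2 units *Myh7* over *Myh6* was 0.47 greater in the labelled KO heart (1.59 in WT, 2.06 in the labelled KO), *Myl2* over *Myl7* 0.31 greater and *Myl3* over *Myl4* 0.25 greater, whereas *Tnni1* over *Tnni3*, which is not a chamber pair, was 0.03 greater. In all 3 chamber pairs the share of the ventricular gene was thus greater in the labelled KO heart, in 1 library of each genotype.

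Other genes of the chambers were listed beside these. Of 9 further genes more used by atria, 6 were lower and 3 higher in the labelled KO heart, none by 2-fold, with a median log2 ratio of -0.13. *Nppa* (atrial natriuretic peptide) stood at 350 and 304 FPKM, *Stard10* at 108 and 80.1, and *Tbx5*, a T-box factor of the atria and left ventricle, ran the other way at 14.8 and 20.4. Of 9 further genes more used by ventricles, 7 were higher and 2 lower, none by 2-fold, with a median of 0.06. *Hey2*, a repressor of the ventricular compact wall, stood at 28.4 and 37.4 and *Kcne1*, a potassium channel subunit, at 88.6 and 108. The lowest log2 ratio of this list was that of *Mybphl*, at 40.2 and 33.3, a gene known from atrial muscle as well, so its place in the list is uncertain. In these whole-heart samples, fewer cells of a type and less RNA per cell cannot be told apart.

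The rest of the contractile apparatus was close to level. Of 20 other sarcomere genes, 8 were higher and 12 lower, none by 2-fold, with a median of -0.04: *Tpm1* and *Tnnc1* were the most abundant in the WT heart, and *Tnnc1*, the calcium-binding troponin subunit, stood at 3958 and 3696 FPKM. *Ttn*, the giant spring protein titin, stood at 16 and 20.8, the largest log2 ratio of the list at 0.36, whereas in FPKM *Tpm1* differed more, at 4843 and 4439. Of 14 genes of calcium handling and conduction, 10 were higher and 4 lower, none by 2-fold, with a median of 0.05.

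Genes of other muscle and cell types were set beside these. Of 16 skeletal muscle genes, 9 were higher and 7 lower in the labelled KO heart, none by 2-fold, with a median log2 ratio of 0.05. *Acta1*, the skeletal alpha actin that the embryonic heart also uses, stood at 370 FPKM in WT and 223 in the labelled KO, and *Myl1*, a skeletal essential light chain, at 358 and 195.8, whereas *Tnni2*, the fast skeletal troponin I, stood at 119 and 186. Smooth muscle genes had a median log2 ratio of -0.17 (6 of 9 below 0, *Acta2* 1176 and 876), epicardial genes -0.14 (4 of 6 below 0), fibroblast genes 0.02 (4 of 9 below 0) and endothelial genes 0.03 (3 of 7 below 0). Red blood cell genes had a median of -0.54 (9 of 12 below 0), with a summed level of 61236 and 54199 FPKM, and 4 of 8 hepatocyte genes were at least 2-fold lower, with *Alb* at 12.7 and 3.04. The hepatocyte genes summed to 67.4 and 67.5 FPKM, since *Trf* (transferrin), the highest of them, stood at 30.1 and 58.5. Of 4 lung epithelial markers, *Nkx2-1*, *Sftpc* and *Sftpb* were at 0 in both hearts. Their part in the differences of *Myh6*, *Myl7*, *Myl4* and *Actc1* was not tested.

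In liver the 10 genes were low, yet 7 of them differed at least 2-fold between the libraries. The liver labelled *Dnmt3a* KO was at least 2-fold lower in FPKM + 1 for 5 of the 10 genes (*Actc1*, *Myl4*, *Tnni1*, *Tnnt2* and *Myh7*), against 1.72% of tested genes, and at least 2-fold higher for 2 (*Myl2* and *Tnni3*), against 0.890%. The median log2 ratio of the 10 was -0.55, against -0.08 over all tested genes. The summed level of the 10 was 116 FPKM in WT and 30.2 in the labelled KO.

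*Actc1* stood at 48.5 FPKM in the WT liver (an estimated 1623 reads) and at 3.97 in the labelled KO liver (130 reads), 12.2-fold lower (counting interval 10.2 to 14.8). *Tnni1* stood at 24.8 and 4.09, 6.05-fold lower (4.90 to 7.57), and *Myl4* at 19.9 and 2.12, 9.40-fold lower (6.76 to 13.2). *Tnnt2* stood at 9.12 and 1.42, 6.44-fold lower (4.49 to 9.26). *Myh7* stood at 2.49 and 0.726, a log2 ratio of -1.02 in FPKM + 1, which was -0.94 when ratios were centred on their median and -0.97 when libraries were scaled without globins, and then under 2-fold.

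The 2 genes in the opposite direction rested on few reads in WT. *Myl2* stood at 0.493 FPKM in the WT liver (9 reads) and 4.91 in the labelled KO liver (87 reads), 9.95-fold higher (4.96 to 22.3). *Tnni3* stood at 0.525 (10 reads) and 2.27 (42 reads), 4.32-fold higher (2.11 to 9.56). The remaining 3 genes differed by less than 2-fold: *Myl7* stood at 9.12 and 9.69, *Myl3* at 0.962 and 0.845 and *Myh6* at 0.137 and 0.179 FPKM.

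**Figure D4:**
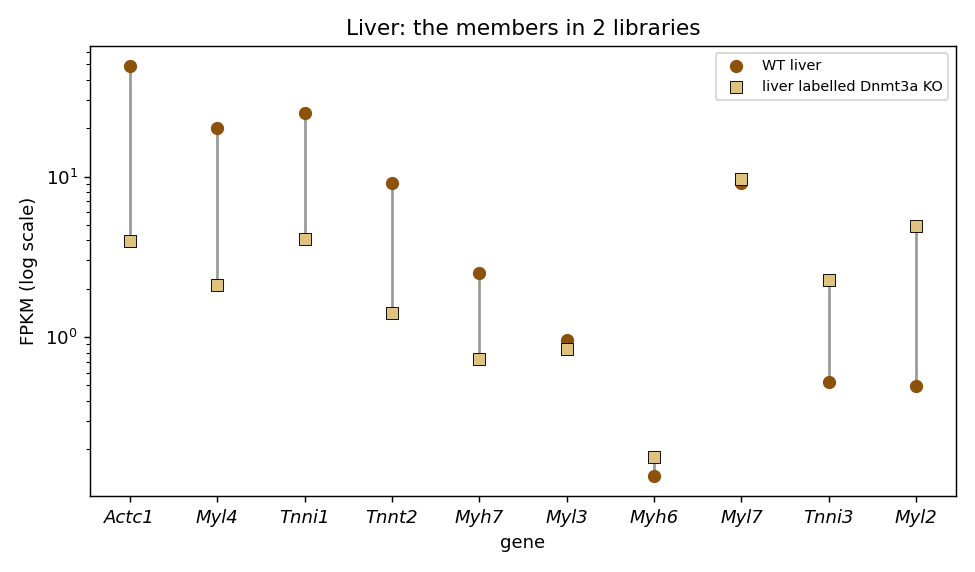
FPKM (log axis) of the 10 genes in the WT liver (circles) and the liver labelled *Dnmt3a* KO (squares), 1 library each, joined by a line for each gene. *Actc1*, *Myl4*, *Tnni1*, *Tnnt2* and *Myh7* are lower in the labelled KO, *Tnni3* and *Myl2* are higher, and *Myl3*, *Myh6* and *Myl7* lie close together.

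As a share of the heart of the same genotype, the WT liver held *Tnni1* at 0.603%, *Actc1* at 0.440% and *Myl4* at 0.339%, but *Myl2*, the top gene of the heart, at 0.00192%. In the labelled KO liver *Myl2* stood at 0.0192% of the heart, *Myh6* at 0.0192%, *Myh7* at 0.0187% and *Myl3* at 0.0124%, and the other 6 at 0.0327% to 0.246%. The ratios among the members in the WT liver were thus unlike those of the WT heart, with *Actc1* above *Myl2*, *Tnni1* 47.1-fold above *Tnni3* and *Myl4* 20.7-fold above *Myl3*.

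Markers of skeletal muscle were present in the WT liver and lower in the labelled KO liver. Of the 16 listed, 11 were at least 2-fold lower and none at least 2-fold higher, all 16 lay below 0, and the median log2 ratio was -1.75, with a summed level of 376 and 138 FPKM. *Acta1* stood at 28.4 and 0.624 FPKM, *Myl1* at 24.1 and 0.710, and *Myh3*, the embryonic skeletal heavy chain, at 9.96 and 0.248. *Myog*, which encodes the skeletal muscle transcription factor myogenin, stood at 6.31 and 0.150. Of the 20 other sarcomere genes, 4 were at least 2-fold lower (*Actn2*, *Nebl*, *Myom2* and *Smpx*) and 19 lay below 0. Of the heart-defining genes, *Nkx2-5* was at 0 FPKM in WT and 0.117 in the labelled KO and *Nppa* at 0 and 0.175, whereas *Gata4* was at 14.8 in both and *Tbx5* at 0.501 and 0. Fibroblast genes had a median of -0.52 (9 of 9 below 0), smooth muscle genes -0.29 (7 of 9), epicardial genes -0.35 (6 of 6) and red blood cell genes 0.15 (5 of 12), where 61.6% of all tested genes lay below 0. Hepatocyte genes had a median of -0.41 (6 of 8 below 0) and a summed level of 24526 and 14914.5 FPKM. The part of these cell types in the members' differences was not tested.

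In fibroblasts no member other than *Tnnt2* and *Myl4* exceeded 2.37 FPKM. Between 2 and 5 of the 10 genes reached 1 FPKM in each of the 6 libraries, and 0 to 4 were listed at 0. *Tnnt2* was the highest in 5 of the 6 libraries. It stood at 1.49 FPKM in WT MEFs with DMSO and at 6.76 with GSK126, at 6.42 and 6.18 in MEFs labelled *Dnmt3a* KO, and at 8.25 and 9.07 in *Dnmt3a* and *Dnmt3b* KO 2i-MEFs. The WT DMSO library thus stood apart below the other 5. *Myl4* stood at 4.21 and 3.62 in WT MEFs (DMSO, GSK126), 3.96 and 5.53 in the labelled KO, and 1.35 and 2.17 in the 2i-MEFs.

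**Figure D5:**
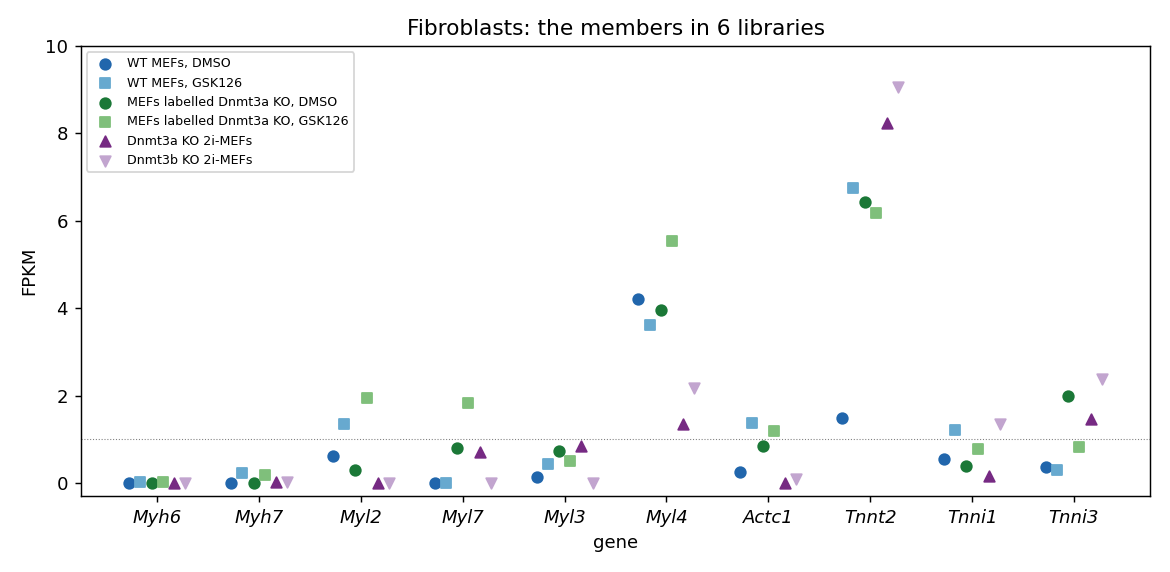
FPKM (linear axis) of the 10 genes in the 6 fibroblast libraries, 1 point per library; the dotted line is at 1 FPKM. *Tnnt2* is at 1.49 in WT MEFs with DMSO and between 6.18 and 9.07 in the other 5 libraries, and *Myh6* and *Myh7* do not exceed 0.235.

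Between genotypes with DMSO, 2 of the 10 genes were at least 2-fold higher in FPKM + 1 in MEFs labelled *Dnmt3a* KO (*Tnnt2* and *Tnni3*), against 3.27% of tested genes, and none was at least 2-fold lower, against 1.54%. *Tnnt2* was 4.30-fold higher, on 27 reads in WT and 165 in the labelled KO. *Tnni3* stood at 0.361 FPKM (5 reads) in WT and 2.00 (37 reads) in the labelled KO, 5.54-fold higher. Smooth muscle genes, which these cells express, had a median log2 ratio of 0.44 in this comparison and a summed level of 2631 and 3431 FPKM (8 of 9 above 0). Epicardial and mesothelial genes had a median of 1.04 with 3 of 6 at least 2-fold higher (*Wt1*, *Upk3b* and *Upk1b*) and *Tbx18* at least 2-fold lower, on a summed level of 57.5 and 123 FPKM. Fibroblast genes had a median of -0.39 (8 of 9 below 0), and skeletal muscle genes a median of 0, with 3 at least 2-fold higher, among them *Acta1* at 15.5 and 40.5 FPKM, and 1 lower, *Tnni2* at 6.65 and 1.93. Their part in the members' differences was not tested.

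Between genotypes with GSK126, 1 of the 10 was at least 2-fold higher in the labelled KO (*Myl7*), against 2.12% of tested genes, and none at least 2-fold lower, against 2.14%. *Myl7* was listed at 0 in WT MEFs with DMSO and with GSK126, which allows up to 0.423 and 0.393 FPKM (3 reads each), and at 0.803 FPKM (8 reads) and 1.82 FPKM (15 reads) in the labelled KO. *Tnnt2* stood at 131 reads in each of the GSK126 libraries, and *Tnni3* at 0.294 and 0.832 FPKM. Beside these, 4 of the 6 epicardial genes were at least 2-fold higher and 1 at least 2-fold lower in the labelled KO, with a median of 1.58 and a summed level of 69.6 and 315 FPKM, and *Upk1b* stood at 9.38 and 92.5. Fibroblast genes had a median of -0.54 (9 of 9 below 0), smooth muscle genes -0.04 and skeletal muscle genes 0.02. The part of these cell types in the value of *Myl7* was not tested.

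GSK126 was set against DMSO within a genotype, 1 library each, so an effect of EZH2 inhibition cannot be told apart from differences between cultures. In WT MEFs 1 of the 10 was at least 2-fold higher with GSK126 (*Tnnt2*, 4.53-fold), against 1.46% of tested genes, and none at least 2-fold lower, against 1.07%. *Actc1* stood at 0.262 and 1.38 FPKM (6 and 34 reads), a log2 ratio of 0.92 in FPKM + 1 and so just under 2-fold on that scale. In the MEFs labelled *Dnmt3a* KO 1 of the 10 was at least 2-fold higher (*Myl2*), against 1.41% of tested genes, and none at least 2-fold lower, against 2.37%. *Myl2* stood there at 0.293 FPKM with DMSO (5 reads) and 1.95 with GSK126 (29 reads), and in WT MEFs at 0.627 (8 reads) and 1.36 (18 reads). *Tnnt2* in the labelled KO stood at 6.42 and 6.18 FPKM. With GSK126, epicardial genes had a median of 0.18 in WT (0 of 6 at least 2-fold higher) and 0.78 in the labelled KO (3 of 6), fibroblast genes -0.14 and -0.42, smooth muscle genes 0.10 and -0.63 and skeletal muscle genes 0.02 and 0.01. Their part in the values of *Tnnt2* and *Myl2* was not tested.

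The heavy chains were at the floor of detection in MEFs with DMSO and stayed low with GSK126. *Myh7* had 1 read with DMSO in either genotype, and 27 reads in WT and 24 in the labelled KO with GSK126, or 0.00936 and 0.235 FPKM in WT and 0.00656 and 0.191 in the labelled KO. *Myh6* had 0 reads with DMSO in both, which allows up to 0.0283 FPKM in WT and 0.0198 in the labelled KO, and 4 reads in each with GSK126. In FPKM, *Myh7* was 25.1-fold higher with GSK126 in WT (counting interval 4.13 to 1027) and 29.1-fold higher in the labelled KO (4.74 to 1195), each against 1 read, whereas in FPKM + 1 the log2 ratios were 0.29 and 0.24, under 2-fold. With a pseudocount of 0.1 they were 1.61 and 1.45. *Myh6* and *Myh7* share reads, and the genotype comparisons and the treatment comparisons have libraries in common.

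The remaining members stayed low in MEFs. *Tnni1* ranged from 0.399 to 1.21 FPKM over the 4 MEF libraries, *Myl3* from 0.149 to 0.727 and *Actc1* from 0.262 to 1.38.

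Between the 2i-MEFs, none of the 10 was at least 2-fold higher in *Dnmt3a* KO than in *Dnmt3b* KO, against 4.23% of tested genes, and 1 was at least 2-fold lower (*Tnni1*), against 2.51%. *Tnni1* stood at 0.167 FPKM (2 reads) in *Dnmt3a* KO and 1.35 FPKM (12 reads) in *Dnmt3b* KO. *Tnni3* stood at 1.46 and 2.37 FPKM, and *Myl3* at 0.853 (7 reads) and 0. *Myl7* stood at 0.706 (3 reads) and 0, *Actc1* at 0 and 0.0857 (1 read), *Myh7* at 0.0154 and 0.0367, and *Myl2* and *Myh6* at 0 in both. At this depth a count of 0 allows up to 0.472 FPKM for *Myl2* and up to 0.830 FPKM for *Myl7* in *Dnmt3b* KO, so lower levels were not detectable. In this comparison epicardial genes had a median of -0.15, with 1 of 6 at least 2-fold lower, and fibroblast genes -0.15, with none past 2-fold. Smooth muscle genes had a median of -0.60, with 2 of 9 at least 2-fold lower. Skeletal muscle genes had a median of -0.03, with 3 of 16 at least 2-fold higher and 3 at least 2-fold lower. The part of these cell types in the value of *Tnni1* was not tested.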

How the data were processed

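RNA was measured by poly(A) RNA-seq (TruSeq Stranded mRNA, single reads of 75 bases). Per the study's methods, the authors used cutadapt 1.15 for trimming and TopHat 2.1.1, running Bowtie2 2.3.2, for alignment to mm10 with GENCODE M15, kept reads with a mapping quality of at least 20 and computed FPKM per gene with Cufflinks 2.2.1. FPKM are the deposited values; counts were not used here, the strand setting is not given in the sources used here, and dropping reads that map to several places can lower *Myh6* and *Myh7*.

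Groups came from the labels. Rows sharing a symbol (155 rows more than symbols) were summed. Ratios are log2 of FPKM + 1, which understates changes of low genes. With 1 library per condition there was no test: a call is a 2-fold difference, set beside its share among 14150 genes averaging 1 FPKM or more. All 10 members passed that filter through their level in heart. Depth was estimated from low FPKM steps of single-transcript genes of at least 1500 bases, and 96.4% to 98.1% of values under 10 reads lay within 0.1 of a whole read. Reads per member used the principal transcript in GENCODE M21, so they are estimates, with Clopper-Pearson 95% intervals. The code was tested on simulated data. Python 3.11.15, pandas 2.3.3 and scipy 1.17.1 were used.

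The members and the gene lists were chosen with earlier results of these data known. The text names all members, and from a list up to 3 genes with the largest change or highest level; *Myog*, *Tnnc1*, *Tnni2*, *Nkx2-5*, *Tbx5* and *Gata4* were named as defining genes or for their role after their values were seen. Also after that, the 4 other sarcomere genes past 2-fold in liver and the 4 epicardial genes past 2-fold in MEFs with DMSO were named in full. *Kcnj3*, *Gja5*, *Pln* and *Gja1* stand in 2 lists. The alternatives were the pseudocount, the filter, the scaling, the fold and repeated symbols.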

Additional observations from a re-analysis of the deposited data

Results flagged for a closer look

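*Tnnt2* moved in opposite directions between the genotypes in MEFs and in liver. In MEFs with DMSO the log2 ratio of the library labelled *Dnmt3a* KO over WT was 1.57 (6.42 against 1.49 FPKM), and in liver it was -2.07 (1.42 against 9.12 FPKM). Each group had 1 library, and the difference between MEFs and liver was not tested. With GSK126 the MEF libraries stood at 6.18 and 6.76 FPKM, and the hearts at 4334 and 4225.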

How the results depend on the processing

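No paired analysis was possible because the WT and KO groups share no replicate number in the labels and no value came from a test. Fits that pool genotype over tissues or treatments were not run, and with 1 library per condition no replicate was left out. Heart and liver of a genotype carry the same title number, so each heart over liver ratio is within that number. In the heart and liver comparisons the counts of members past 2-fold stayed within 1.5 times those given above in every alternative tried, and the paralog ratios in heart kept their direction. Of these counts and ratios 143 held in this sense and 17 did not, and the 17 are all counts of members in fibroblasts. The filter and repeated-symbol settings could not change a member's value, since every member passed the filter and matched 1 row. Their checks, which are among the 143 and among the single-gene values below, held by construction. With a pseudocount of 0.1 in place of 1, the members at least 2-fold higher numbered 5 between genotypes with DMSO, 2 between genotypes with GSK126, 6 for GSK126 over DMSO in WT MEFs, 3 in MEFs labelled *Dnmt3a* KO (with 1 lower, *Tnni3*) and 2 in *Dnmt3a* KO over *Dnmt3b* KO 2i-MEFs. At 1.5-fold they numbered 4 with DMSO between genotypes, 2 for GSK126 in WT MEFs, 2 in MEFs labelled *Dnmt3a* KO (with 1 lower) and 2 in the 2i-MEFs. With FPKM itself and no pseudocount, an alternative chosen after seeing the data that leaves out members at 0, they numbered 4 with DMSO between genotypes (with 1 lower), 6 for GSK126 in WT MEFs and 3 in MEFs labelled *Dnmt3a* KO (with 1 lower), and 2 were lower in the 2i-MEFs. These genes had from 0 to 37 estimated reads in the libraries concerned, apart from *Tnnt2* and *Myl4*, so their folds are limited by depth. For single genes 672 values kept their call and 37 did not, where the 1.5-fold setting moves the limit and not the value. No value past 2-fold in the main setting changed direction, and smaller ratios were not checked for direction. *Myh7* in liver, at -1.02, came to -0.94 when centred, -0.97 when scaled without globins and -0.96 when scaled without globins and members, which leaves 4 members at least 2-fold lower there. Scaling moved the median of all genes by over 0.1 for heart over liver in both genotypes, from -0.13 in WT to 0.01 and from -0.06 in the labelled KO to 0.08, each without globins and members, and in no other comparison.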
